A study of Mus musculus with 12 samples.

Results

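The results concern 10 genes of the fat cell on 12 two-colour arrays of mouse mammary tumors. They were Adipoq, Lep, Retn, Fabp4, Pparg, Cebpa, Lpl, Lipe, Cidec and Cd36. Their probes were found in the scanner files by accession, then by symbol, then by older symbol. This gave 18 of the 41174 gene probes on the array, and 17 of the 18 passed the filter on dim probes. All 10 genes were among the 20402 genes tested. The measured tissue was the mammary tumor labelled ShcA-null (8 tumors), and the RNA it was set against on every array was 1 pool of NIC tumors. Per the series' design text, the tumors are NIC tumors that lack ShcA, so that the NIC transgene is shared by tumors and pool. NIC tumors carry an activated Neu (ErbB2) receptor that is made together with Cre recombinase in the mammary epithelium, and ShcA, the product of Shc1, is an adaptor that couples such receptors to Ras. The labels give no strain, age or number of animals in the pool. Each tumor had a first array with its RNA in Cy5, and tumors 1 to 4 had a second array with the dyes swapped. Nothing in the labels ties the 8 tumors to 8 animals, and the p-values below therefore cover only the spread between these samples.

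White fat cells surround the epithelium of the mouse mammary gland and store triglyceride in a lipid droplet. Pparg and Cebpa are the transcription factors that turn a precursor into a fat cell and keep its genes on. The cell takes up fatty acids through Lpl and Cd36, carries them on Fabp4, stores them in droplets coated by Cidec and releases them through Lipe, while Adipoq, Lep and Retn are hormones it secretes. Cd36 and Fabp4 are also known from macrophages and capillary endothelium, and Lpl, Cd36 and Pparg from other cells. In whole tumor RNA, fewer fat cells and less RNA per fat cell cannot be told apart.

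The probes behind the values were 60 bases long. Those shown here carry the hormone results or stand for the genes whose probes disagreed. Coordinates refer to mm7, the build of the array design, for which no exon annotation was used. The adiponectin probe A_51_P458451 lies at chr16:22816125-22816184 on the plus strand.
Adipoq A_51_P458451: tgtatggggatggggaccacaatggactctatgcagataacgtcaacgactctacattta
Both resistin probes cross the same intron, since each spans 822 bases of the genome, at chr8:3618519-3619340 for A_52_P55972 and at chr8:3618557-3619378 for A_51_P233597, on the plus strand. The 22 bases in capitals are common to both.
Retn A_52_P55972: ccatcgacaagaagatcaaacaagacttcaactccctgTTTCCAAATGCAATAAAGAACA
Retn A_51_P233597: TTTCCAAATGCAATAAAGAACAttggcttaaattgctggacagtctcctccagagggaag
For Cebpa and Lpl the probe shown is the dimmer of the pair, at chr7:32010056-32010115 (plus strand) and chr8:67355909-67355968 (plus strand).
Cebpa A_51_P214087: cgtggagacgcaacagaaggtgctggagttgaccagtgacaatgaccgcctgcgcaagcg
Lpl A_52_P257812: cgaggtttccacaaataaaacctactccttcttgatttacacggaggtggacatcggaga
For Lipe both kept probes are shown, at chr7:22170761-22173014 for A_51_P435366, which crosses an intron, and chr7:22170615-22170674 for A_51_P435363, both on the minus strand.
Lipe A_51_P435366: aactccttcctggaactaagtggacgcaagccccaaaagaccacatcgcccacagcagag
Lipe A_51_P435363: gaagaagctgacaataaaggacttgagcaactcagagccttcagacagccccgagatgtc

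Some swapped arrays did not match the tumor on their label, which bears on every mean below. Across 24874 probes the swapped array labelled tumor 2 correlated with the first array of tumor 2 at only r = 0.137, but with that of tumor 3 at 0.819. The swapped array labelled tumor 3 correlated best with tumor 4 (0.399), that labelled tumor 4 best with tumor 8 (0.697), and that labelled tumor 1 with its own tumor (0.445). Values of the first arrays are therefore given beside those of the 8 tumors. The Shc1 probe gave a log2 ratio of -2.05 on the first array of tumor 3 and -2.22 on the swapped array labelled tumor 2, against -0.03 to 0.74 on the other 10 arrays, so the label ShcA-null was not borne out by Shc1 RNA on those 10. Which part of Shc1 was deleted is unstated in the labels, so a probe outside it would check nothing.

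None of the 10 adipocyte genes was called different between the tumors and the pool. By limma with Benjamini-Hochberg adjustment over all genes tested, 0 members were higher, against 6.6% of all genes (1346), and 0 were lower, against 10.6% of all genes (2157). At an unadjusted p under 0.05 there was 1 member, Cd36, against 33.2% of all genes. The member median of the mean log2 ratio was -0.05, against -0.02 over all genes. The members varied widely between tumors: the median member SD between tumors was 0.909, against 0.462 over all genes tested. Arrays centred on their median, without loess, moved the median of all genes to 0.16 and turned the split of all calls to 2376 higher and 968 lower, and with it 1 member (Cd36) was called higher.

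**Figure D1:**
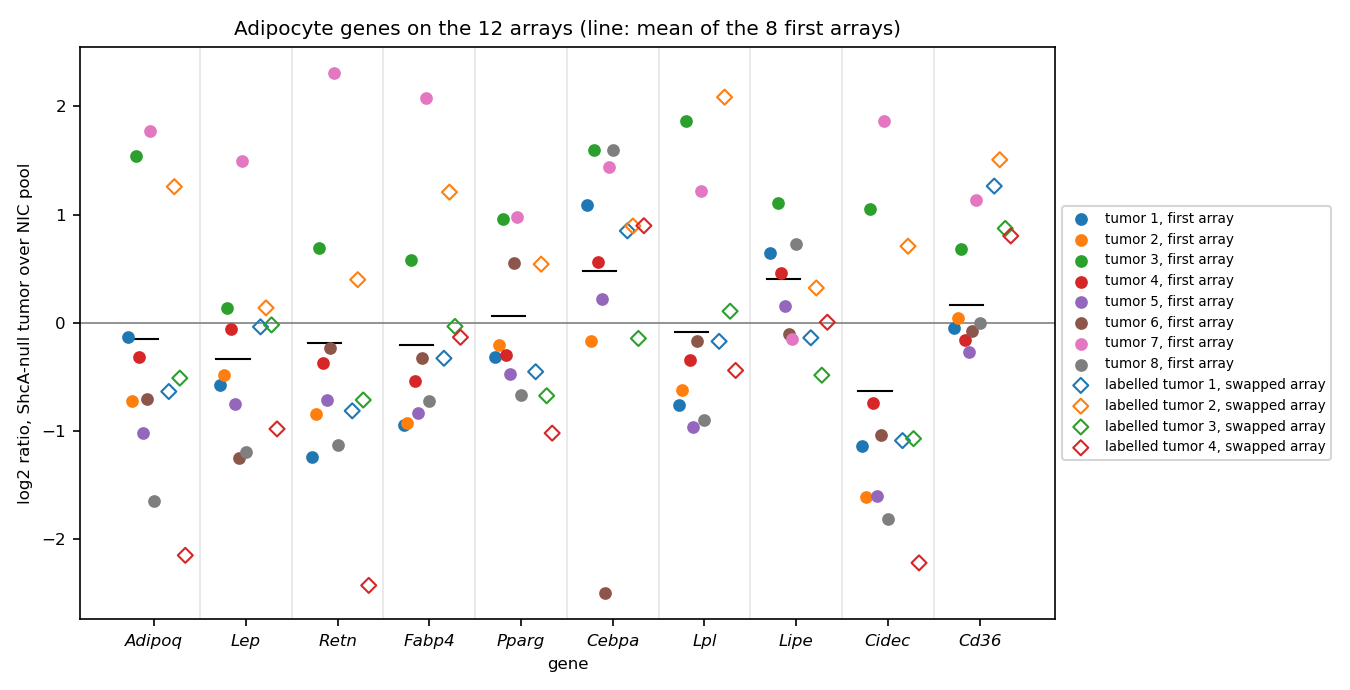
Log2 ratio of ShcA-null tumor over NIC pool (vertical axis) of the 10 adipocyte genes (horizontal axis). Filled points are the 8 first arrays, open diamonds the 4 swapped arrays coloured by their label, and the short line is the mean of the first arrays. Tumors 3 and 7 are the highest filled points for 8 of the genes, and the swapped array labelled tumor 2 lies near tumor 3.

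Among the secreted hormones, Adipoq encodes adiponectin, which raises the insulin response of liver and muscle. Its log2 ratio on the first arrays of tumors 1 to 8 was -0.14, -0.72, 1.54, -0.31, -1.02, -0.70, 1.77 and -1.64. Only tumors 3 and 7 lay above the pool, and 1.68 log2 units separated the lower of them from the next tumor. The swapped arrays labelled tumors 1 to 4 gave -0.64, 1.26, -0.51 and -2.15. Over the 8 tumors the mean was -0.30 ± 1.11 (SD, n = 8; 95% interval -1.23 to 0.62), with a limma adjusted p of 0.562.

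Lep encodes leptin, the hormone by which fat stores limit food intake. On the first arrays its ratio had a lowest value of -1.25 in tumor 6, a median of -0.53 and a highest value of 1.50 in tumor 7. Tumor 3, at 0.13, was the only other tumor above the pool, and tumor 4, at -0.06, was close to it. The mean over tumors was -0.33 ± 0.87 (SD, n = 8; limma adjusted p = 0.423).

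Retn encodes resistin, which in mice is made by fat cells and blunts the insulin response. Its first arrays had a lowest ratio of -1.24 (tumor 1), a median of -0.54 and a highest of 2.31 (tumor 7), with tumor 3 at 0.69 and the other 6 tumors below the pool. The mean was -0.30 ± 1.17 (SD, n = 8; limma adjusted p = 0.582). Without tumor 7 the mean was -0.68 and Retn was called lower (limma adjusted p = 0.0486). That fit averaged arrays by label, which put tumor 3 at -0.01 although its first array gave 0.69. The swapped array averaged into tumor 3 gave -0.71 and matched tumor 4 best, so the call rests on the labels as well as on tumor 7.

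Of the transcription factors, Pparg encodes the nuclear receptor that fat cell formation requires. Its ratios on the first arrays ran from -0.67 in tumor 8 through a median of -0.25 to 0.98 in tumor 7, with tumor 3 at 0.96 and tumor 6 at 0.55. Pparg was the only gene of those led by tumors 3 and 7, besides Cd36, with another tumor above the pool. Its mean was -0.04 ± 0.60 (SD, n = 8; limma adjusted p = 0.893).

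Cebpa, which acts with Pparg to hold the fat cell state, followed another order. The first arrays of tumors 1 to 8 gave 1.09, -0.17, 1.59, 0.56, 0.22, -2.50, 1.44 and 1.60. Tumor 8, the lowest of all for Adipoq and Cidec, was at the top for Cebpa, level with tumor 3, and tumor 6 lay far below the rest. By the dimmer Cebpa probe, tumor 3 (0.80) and tumor 1 (0.72) lay above tumor 8 (0.69). By the brighter probe the mean was 0.44 ± 1.28 (SD, n = 8; limma adjusted p = 0.457). Without tumor 6 it was 0.86, and Cebpa was then called higher (limma adjusted p = 0.0118).

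Of the genes for fatty acid uptake, Lpl encodes the lipase that frees fatty acids from circulating lipoproteins. Its first arrays ran from -0.96 (tumor 5) through a median of -0.48 to 1.87 (tumor 3), with tumor 7 at 1.22 and the other 6 tumors below the pool. The mean was 0.01 ± 0.86 (SD, n = 8; limma adjusted p = 0.990). The swapped array labelled tumor 2 gave 2.09, higher than any first array.

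Cd36 encodes a membrane protein that brings fatty acids into the cell. The first arrays of tumors 1 to 8 gave -0.05, 0.04, 0.68, -0.16, -0.27, -0.08, 1.13 and 0.00, so that tumors 3 and 7 were again highest and the rest lay near the pool. The 4 swapped arrays gave 1.26, 1.51, 0.87 and 0.80, each above 7 of the 8 first arrays. Its mean was 0.16 over the first arrays and 1.11 over the swapped arrays. Dye orientation and slide change together between them and cannot be told apart. The mean over tumors was 0.41 ± 0.49 (SD, n = 8; limma adjusted p = 0.120). With a dye term and the labelled tumor as a block it was 0.64, and Cd36 was called higher (limma adjusted p = 0.00517). Most swapped arrays did not match their label best. With the best match among tumors 1 to 4 or among all 8 as the block, the limma adjusted p was 0.0310 or 0.0424. On the first arrays alone the adjusted p was 0.508.

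Fabp4, the abundant fatty acid carrier of the fat cell, had first-array ratios from -0.95 (tumor 1) through a median of -0.64 to 2.08 (tumor 7). Tumor 3 was at 0.58 and the other 6 tumors were below the pool. The mean was -0.05 ± 0.95 (SD, n = 8; limma adjusted p = 0.928). The pool is the same RNA on every array. By the brightest Fabp4 probe, its normalised log2 intensity ranged over 1.93 between first arrays, more than the 1.44 of the tumors. By A_52_P564544 the pool lay between 14.32 and 15.10 and the tumors between 14.27 and 16.14. By A_51_P336830, on the first arrays measured, the pool lay between 14.73 and 15.93 and the tumors between 15.10 and 16.52. By both of these probes the tumors ranged more widely than the pool.

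**Figure D2:**
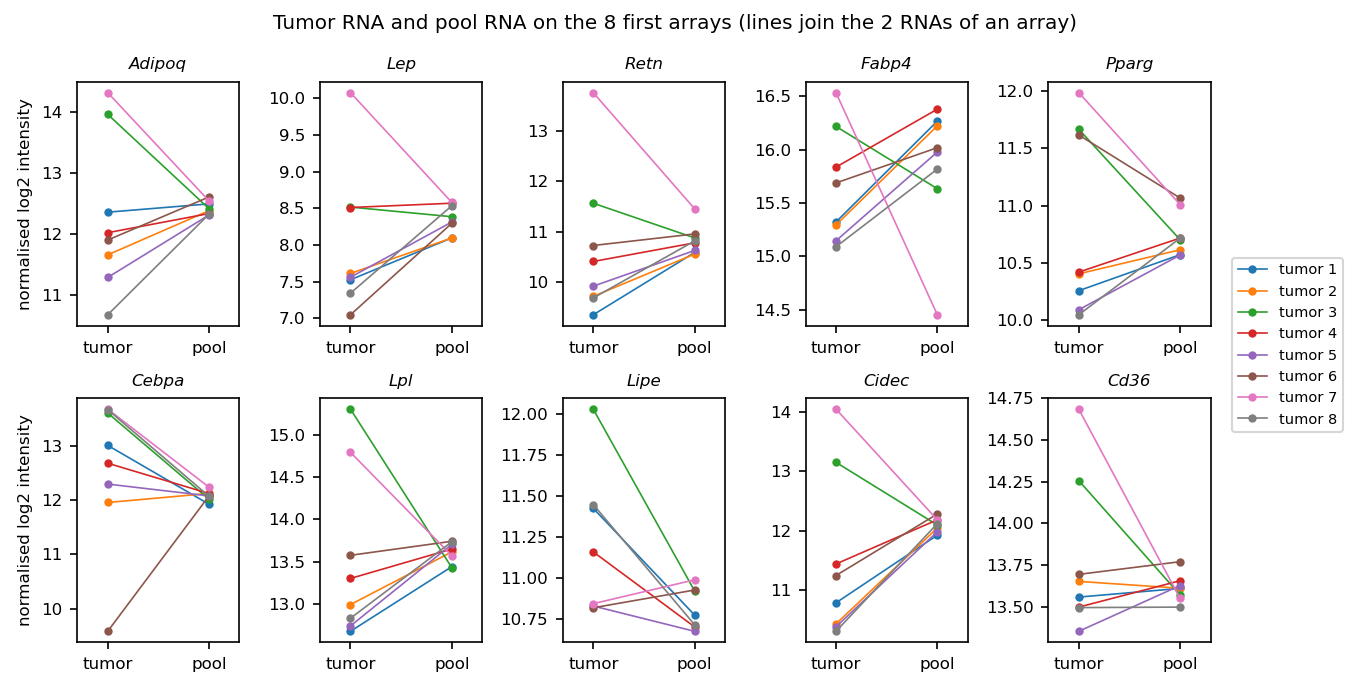
Normalised log2 intensity (vertical axes, a scale of its own for each gene) of tumor RNA (left) and pool RNA (right) on the 8 first arrays, joined by array. Each gene is shown by its brightest probe. By these probes the pool ranges over at most 0.901 for every gene except Fabp4, and the tumors spread more widely than the pool for 9 of the 10 genes.

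Of the genes of the lipid droplet, Cidec encodes the droplet protein that lets small droplets grow into a single large one. The first arrays of tumors 1 to 8 gave -1.14, -1.61, 1.05, -0.74, -1.60, -1.03, 1.86 and -1.81. Cidec thus showed the same order at both ends as Adipoq, with 1.80 log2 units between tumor 3 and the next tumor. The mean was -0.70 ± 1.20 (SD, n = 8; 95% interval -1.71 to 0.30; limma adjusted p = 0.214). Without tumor 7 it was -1.07, and Cidec was called lower (limma adjusted p = 0.0176). In that fit too the arrays were averaged by label, which put tumor 3 at -0.009 although its first array gave 1.05.

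Lipe encodes hormone-sensitive lipase, which cuts stored fat when the cell is told to release it. On 7 first arrays its ratio ran from -0.15 in tumor 7 through a median of 0.46 to 1.10 in tumor 3. The spot on the first array of tumor 2 was dropped for its outlier mark, so tumor 2 rests on its swapped array alone. Tumor 7, high for 9 of the 10 genes, was lowest for Lipe. The mean was 0.22 ± 0.27 (SD, n = 8; limma adjusted p = 0.197), the smallest SD among the 10 genes by their brightest probes. The other kept Lipe probe had an SD of 0.87.

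Across the 10 genes, tumor 3 was above the pool for 10 of 10 genes and tumor 7 for 9 of 10, while the other 6 first arrays had 1 or 2 genes above it. The member median was 1.01 in tumor 3 and 1.47 in tumor 7, and between -0.81 and -0.28 in the other tumors. The swapped array labelled tumor 2 had 10 of 10 genes above the pool and a median of 0.80, and the other swapped arrays had 2 or 3. Tumors 3 and 7 were the top pair on the first arrays for 8 of the 9 members with 8 values, against 6.47% of the 16486 genes with 8 values. This order was picked out after its values were seen, so it is given without a test.

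Within the top pair the genes differed. Tumor 7 led for 7 of those 8 genes, by 2.31 against 0.69 in Retn and 2.08 against 0.58 in Fabp4, while tumor 3 led for Lpl. Lep was at 1.50 in tumor 7 and 0.13 in tumor 3. At the low end, tumor 8 was lowest for Adipoq, Pparg and Cidec.

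The SD over the first arrays placed 7 genes at percentile 80.8 or above among all genes tested, at percentile 96.1 for Cebpa, 95.9 for Cidec, 93.1 for Adipoq, 92.4 for Retn, 88.4 for Lpl, 88.2 for Fabp4 and 80.8 for Lep. Pparg was at percentile 65.9, Cd36 at 48.2 and Lipe, by its brightest probe, at 45.0, that is, within the common range.

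Adipoq, Lep, Retn, Fabp4, Cidec, Lpl and Pparg ran together over the 8 first arrays, with Pearson correlations of 0.619 to 0.985 over their 21 pairs (median 0.869). These 7 genes were grouped after their values were seen, and all points share the pool. Without tumors 3 and 7, which lie farthest from the median of Adipoq, the 21 correlations ran from -0.300 to 0.843 (median 0.541, n = 6), so much of the relation rests on those tumors. Adipoq and Cidec had 0.967 with all 8 arrays and 0.797 without the pair. Adipoq and Fabp4 had 0.854 with all 8 arrays and -0.02 without the pair. Cd36 was left out of the 7 but correlated with them at 0.813 to 0.945 with all 8 arrays. Without the pair its correlations with them ran from -0.389 to 0.117. Cebpa correlated with Adipoq at 0.371 and with Pparg at -0.05, and Lipe with Adipoq at 0.04 (n = 7).

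Probes of 1 gene did not always go together. In Retn, Fabp4 and Cd36 the second probes followed the brightest one at r = 0.972 to 0.993 over the first arrays. Cebpa was the exception of consequence: its dimmer probe A_51_P214087 gave -2.12 in tumor 7 and -1.07 in tumor 4, where the brighter probe A_52_P168567 gave 1.44 and 0.56, and the pair correlated at 0.481. In tumor 6 both were low, at -2.03 and -2.50. By the dimmer probe the Cebpa mean was -0.32, so the sign of Cebpa depends on the probe.

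For Lipe, A_51_P435363 gave -1.80 in tumor 6 and -1.35 in tumor 7, where A_51_P435366 gave -0.11 and -0.15. Both kept their lowest values in those tumors, and the correlation was 0.930 (n = 7), but the mean changed to -0.22. For Lpl, A_52_P257812 gave -1.39 in tumor 6, where A_51_P259296 gave -0.17. On the other 7 first arrays the dimmer Lpl probe was the higher one, and by it 5 tumors were above the pool, with tumors 1, 2 and 4 at 0.08, 0.06 and 0.19. Another probe named to Lipe through the older symbol 4933403G17Rik was above background in the tumor RNA of 2 arrays and in the pool of 0, and was not kept. Strongly low values in tumors 6 and 7 were not limited to these probes. Dgat1 gave -3.32 and -2.95 there, Slc27a4 -2.60 and -2.65, and G0s2 -2.56 and -1.63. Plin5 (2.03 and 1.50) and Lepr (2.01 and 1.59) were high in both. The array of tumor 6 had the lowest share of tumor spots above background, 63.5%. The cause was not tested.

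**Figure D3:**
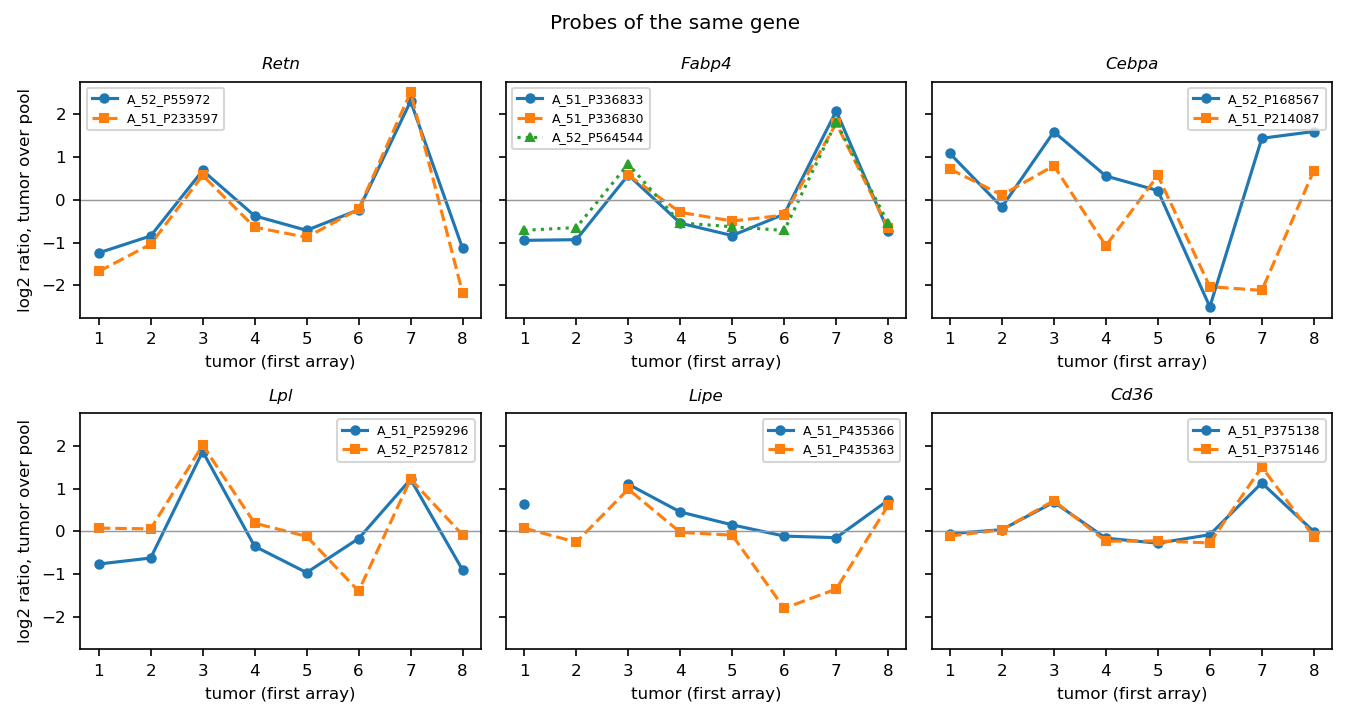
Log2 ratio of tumor over pool (vertical axis) on the 8 first arrays (horizontal axis, tumor number) for each kept probe of the 6 genes with more than 1. The lines run together for Retn, Fabp4 and Cd36 and part for Cebpa in tumors 4 and 7, for Lipe in tumors 6 and 7 and for Lpl in tumor 6.

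The value table that the authors deposited on the log2 scale gave means of the same sign for the same probes. Its means over the 8 tumors were -0.27 for Adipoq, -0.43 for Lep, -0.32 for Retn, -0.28 for Fabp4, -0.02 for Pparg, 0.53 for Cebpa, 0.04 for Lpl, 0.28 for Lipe, -0.69 for Cidec and 0.46 for Cd36. By limma 0 members were called in it in either direction. On its first arrays Adipoq stood at 1.52 in tumor 3 and 1.90 in tumor 7 and below the pool in the other 6 tumors. Single tumors differed more: Lep was at -0.06 in tumor 3, and Pparg at 0.90 in tumor 6 against 0.82 in tumor 3. In tumor 6 Retn was at 0.18 and Lpl at 0.12, above the pool in that table. Lipe was at 0.19 in tumor 7 and was lowest in tumor 5, at 0.07. Tumors 3 and 7 were the top pair for 6 members there, without Lep and Pparg. On its first arrays 9 of 10 members were above the pool in tumor 3, 10 in tumor 7 and 5 in tumor 6. Each of the other tumors had 2 or 3. The sources used here do not say how that table was normalised or centred.

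Other genes of the fat cell were taken from 7 lists chosen with earlier results of these data known. Of 76 genes, 71 were tested, 4 were higher, 5 were lower and 62 were not called, and 21 had an unadjusted p under 0.05. These were 5.63%, 7.04% and 29.6% of the 71 genes, against 6.6%, 10.6% and 33.2% of all genes, so each share lay below that of all genes and the counts are no result about the lists. Without tumor 8 the count of higher calls was 0, and without tumor 2, 3, 4 or 7 it was 2. Without tumor 7 the count of lower calls was 8. On the first arrays alone, 2 genes were higher and 5 lower.

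Of 11 adipokines and their receptors, 0 were higher, 1 was lower and 10 were not called. Agt, the precursor of angiotensin, had a mean of -1.22 ± 0.54 (SD, n = 8; limma adjusted p = 0.00314) and was below the pool in 8 of 8 tumors. Among the uncalled, Cfd (adipsin, a complement protease of fat cells) stood at -0.87 ± 1.43 and Lepr (the leptin receptor) at 0.84 ± 1.04 (SD, n = 8 each). Cfd followed Adipoq over the first arrays at r = 0.975, with 1.62 in tumor 3 and 1.21 in tumor 7 and all other tumors at -1.30 or lower. Agt did not, at r = -0.60.

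Of 9 partners of lipoprotein lipase and of fatty acid uptake, 1 was higher and 8 were not called. Slc27a1, a fatty acid transporter, had a mean of 0.83 ± 0.60 (SD, n = 8; limma adjusted p = 0.0202), but its swapped arrays labelled tumors 1 to 3 were below the pool (-0.75, -0.10 and -0.50). Tumor 2 rests on its swapped array alone, and the call was lost without tumor 4 or 8. Slc27a4 stood at -0.64 ± 1.29, with -2.60 in tumor 6, -2.65 in tumor 7 and -1.29 to 0.59 on the other arrays. Fabp5, another fatty acid carrier, stood at 0.57 ± 1.06.

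Of 15 genes of triglyceride synthesis and the lipid droplet, 1 was lower and 14 were not called. Lpin1, the phosphatase that makes diacylglycerol for triglyceride, had a mean of -1.24 ± 0.41 (SD, n = 8; limma adjusted p = 0.00132) and was below the pool on all 12 arrays, tumors 3 and 7 included. It kept that call in 23 of 24 alternatives. Dgat1, which adds the last fatty acid, stood at -0.81 ± 1.44, a mean carried by tumors 6 and 7 (-3.32 and -2.95). Its other arrays gave -0.33 to 0.27. Plin5, a droplet coat protein, stood at 0.67 ± 0.84. The fat cell perilipins Plin4 and Plin1, named here for their likeness to Adipoq, correlated with it at 0.988 and 0.922, with means of -0.43 ± 0.96 and -0.40 ± 1.00.

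Of 9 tested genes of lipolysis and glycerol release, 2 were higher and 7 were not called. Abhd5, the activator of the first lipase of the droplet, had a mean of 0.50 ± 0.41 (SD, n = 8; limma adjusted p = 0.0407). It was not called on the first arrays alone, and leaving out tumor 2, 3, 4, 7 or 8 ended the call. Mgll, which completes the release of fatty acids, stood at -0.69 ± 0.73, and G0s2, an inhibitor of lipolysis, at -0.62 ± 0.96.

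Of 8 tested genes of the insulin response and glucose uptake of fat cells, 0 were called by limma in either direction, and 1 had an unadjusted p under 0.05. Pck1, which in fat cells makes the glycerol for triglyceride, stood at -1.01 ± 1.44, with 1.98 in tumor 7 and negative values on every other array measured. Slc2a4, the insulin-responsive glucose transporter, stood at 0.30 ± 0.95.

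Of 13 tested adipogenic transcription factors, 1 was higher, 2 were lower and 10 were not called. Nr1h3, a sterol-sensing nuclear receptor, was higher at 0.82 ± 0.51 (SD, n = 7; limma adjusted p = 0.0177), with the spot of tumor 5 dropped, and was not called without tumor 8. Its first arrays gave 0.52 to 1.55, but the swapped arrays labelled tumors 1 to 4 gave -0.16, 0.33, -0.30 and 0.16, and on those alone it was not called. Ppargc1a, a coactivator of Pparg that drives mitochondrial genes, was lower at -1.31 ± 0.58 (SD, n = 8; limma adjusted p = 0.00314). Ppara, a receptor that turns on fatty acid oxidation, was lower at -0.50 ± 0.32 (limma adjusted p = 0.0213), which ended without tumor 2 or 3. Ppara was not called on the first arrays alone, on the swapped arrays alone or with each swapped array averaged with the first array it matched best, and kept its call in 14 of 24 alternatives. Gata2, which holds back fat cell formation, stood at 0.82 ± 1.11, and Klf15 at -0.39 ± 0.78.

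Of 6 tested brown fat genes, 1 was lower and 5 were not called. Cox7a1, a respiratory chain subunit of muscle and brown fat, was lower at -0.99 ± 0.44 (SD, n = 8; limma adjusted p = 0.00378). Ucp1, the uncoupling protein that lets brown fat make heat, had a log2 ratio of 3.44 in tumor 7, where the tumor signal was above background, and -1.25 to -0.10 on the other 11 arrays. In those 11 the tumor RNA was above background on 2 and the pool on 11. Cox8b, another brown fat subunit, was 1.81 in tumor 7 and -0.86 or lower on the other 9 arrays measured. Tumor 3, the other tumor high in Adipoq, was thus low in both (-0.96 for Ucp1 and -0.95 for Cox8b). The rest of the list was divided. Dio2 and Prdm16 were higher in tumor 3 (2.84 and 0.41) than in tumor 7 (0.02 and -0.17). Cpt1b and Cox7a1 were higher in tumor 7 (1.04 and -0.69) than in tumor 3 (0.04 and -1.72).

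Outside all lists, the 5 genes most like Adipoq over the 8 tumors, of 18780 compared, were Tox (r = 0.987), Slc7a10 (0.984), Tmem45b (0.974), Mrap (0.974) and Gys2 (0.972). All 5 were highest in tumor 7 and next highest in tumor 3 on the first arrays. They were picked for likeness to Adipoq over the same tumors, so this order adds nothing to the choice. Limma called 0 of these 5 genes. Their means ran from -0.44 for Slc7a10 to 0.86 for Tox. On the first arrays 7 of the 8 other members with 8 values correlated with Adipoq at 0.8 or more, and 7 of 53 genes of the 7 lists did, against 1.77% of 16486 genes.

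By the median of each list, macrophage, fibroblast, endothelial and milk markers were higher in tumor 3 than in tumor 7. In tumor 3 the median log2 ratio was 2.45 for 7 macrophage markers, 2.85 for 7 fibroblast and preadipocyte markers, 1.17 for 8 endothelial markers and 3.70 for 5 milk markers. In tumor 7 the same medians were 0.04, 0.36, 0.45 and 0.70. Some single markers were higher in tumor 7: Lalba (3.12 against 1.24 in tumor 3), Dlk1 (0.68 against 0.05) and Cdh5 (1.07 against 1.01). The median of the 6 epithelial markers ran the other way, at 1.42 in tumor 7 and 1.06 in tumor 3, but the list was split. Epcam, Krt18 and Krt8 were higher in tumor 7 (1.23, 1.57 and 1.56) than in tumor 3 (-0.21, -0.15 and 1.24). Krt5, Krt14 and Cdh1 were higher in tumor 3 (3.99, 3.67 and 0.87) than in tumor 7 (1.62, 1.27 and 0.15). The swapped array labelled tumor 2 gave medians of 1.91, 2.18, 0.73 and 2.67 for the macrophage, fibroblast, endothelial and milk markers. The summed normalised intensity of the macrophage markers ran from 72820 to 459400 in the tumor RNA and from 48780 to 155600 in the pool RNA over the 12 arrays. That of the endothelial markers ran from 18650 to 54950 in the tumors and from 25590 to 33350 in the pool, and that of the fibroblast markers from 55080 to 576100 and from 60170 to 89590. All of these markers were above background on every array in both RNAs. Their part in the levels of Cd36, Fabp4 and Lpl was not tested. Over the 8 tumors 0 of 7 macrophage and 0 of 8 endothelial markers were called, with 1 and 2 at an unadjusted limma p under 0.05. Of the other lists, 1 of 7 fibroblast, 4 of 6 mammary epithelial and 4 of 5 milk markers were called higher. Their largest called means were 1.07 for Ly6a, a stem and stromal cell surface protein, 1.29 for Krt5, a basal keratin, and 4.59 for Csn2, which encodes beta-casein. The calls of Krt8, a luminal keratin, and Epcam, an epithelial adhesion protein, went with the first arrays: their means were 1.40 and 1.24 on the first arrays but -0.68 and -0.71 on the swapped arrays. Epcam kept its call in 8 of 24 alternatives and lost it without any 1 of tumors 1, 2, 4, 5, 6, 7 and 8. Lalba, which encodes alpha-lactalbumin, kept its call in 10 of 24, and Krt14, another basal keratin, in 13. Every one of the 10 adipocyte genes was above background in both RNAs on 12 of 12 arrays by its brightest probe.

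**Figure D4:**
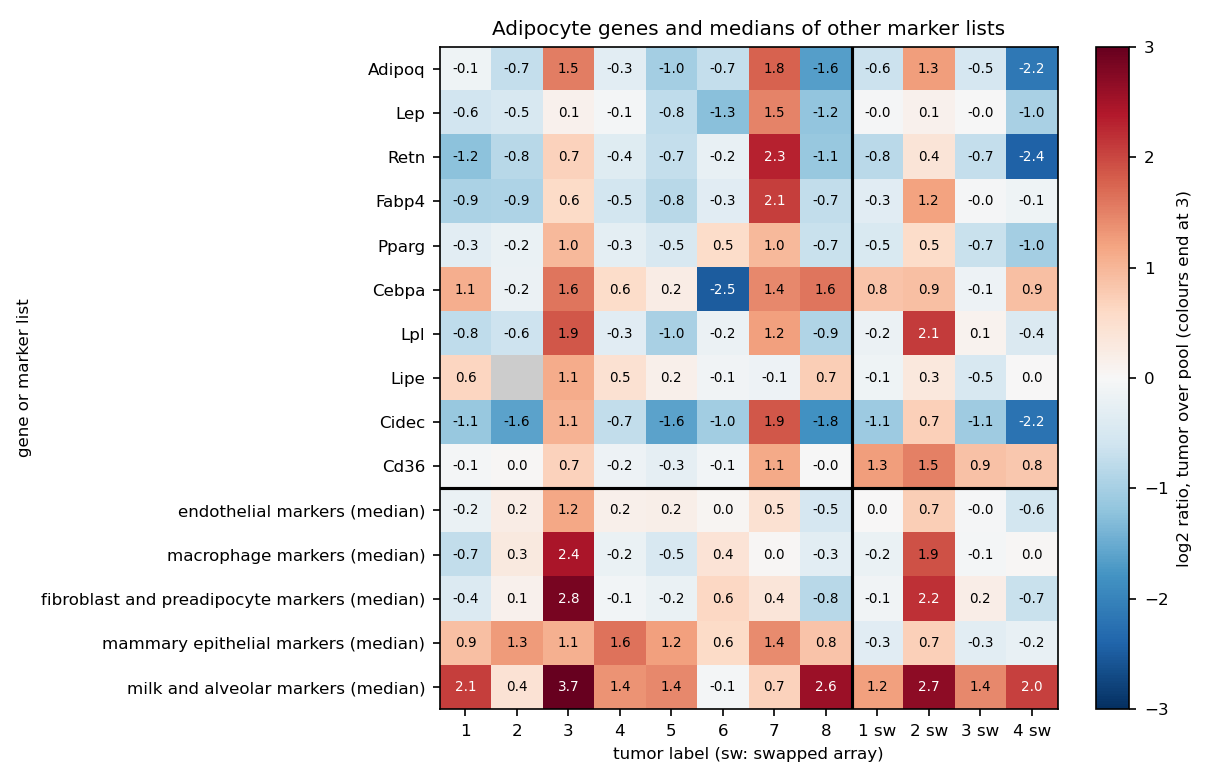
Log2 ratio of ShcA-null tumor over NIC pool for the 10 adipocyte genes (upper rows) and the medians of 5 marker lists of other cells (lower rows) on the 8 first arrays and the 4 swapped arrays (sw). Red is higher and blue lower in the tumor, and grey marks a dropped spot. Column 3 is red in nearly all rows, column 7 chiefly in the adipocyte and epithelial rows, and the column of the swapped array labelled tumor 2 is like column 3.

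Promoters were looked at because Adipoq, Lep and Retn ran together over the 8 first arrays. Without tumors 3 and 7 (n = 6), Adipoq and Retn had r = 0.203 and Lep and Retn 0.067, while Adipoq and Lep had 0.654. RefSeq (GRCm38.p6) gave 12 promoters for 8 of the 10 genes, and none was at hand for Fabp4 and Lpl. The 250 bases before the start were searched on both strands for TTGCNNAA (a site of C/EBP factors), AGGTCA (a nuclear receptor half-site), TATAAA and CCAAT. Matches did not overlap in the promoters shown. Below are the adiponectin promoter, at chr16:23146286-23146535 on the plus strand, and the leptin promoter, at chr6:29059971-29060220 on the plus strand, with matches in capitals.
Adipoq promoter: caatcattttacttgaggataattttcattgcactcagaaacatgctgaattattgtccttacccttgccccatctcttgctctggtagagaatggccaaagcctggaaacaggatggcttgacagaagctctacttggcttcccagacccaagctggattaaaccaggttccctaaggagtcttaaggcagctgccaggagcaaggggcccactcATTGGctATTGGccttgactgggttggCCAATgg
Lep promoter: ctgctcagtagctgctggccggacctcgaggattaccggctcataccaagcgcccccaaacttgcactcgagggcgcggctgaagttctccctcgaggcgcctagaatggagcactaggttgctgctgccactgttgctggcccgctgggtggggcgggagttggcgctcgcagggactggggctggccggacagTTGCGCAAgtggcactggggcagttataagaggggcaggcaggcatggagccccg
The capitals in Adipoq are 3 matches to CCAAT, in either direction, within 34 bases of the start, and those in Lep are 1 match to TTGCNNAA that begins 55 bases before it. CCAAT is in 33.8% and TTGCNNAA in 9.57% of the 32817 promoters of the same length. The Retn promoter held none of the 4 motifs. A match is a description of these letters only.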

How the data were processed

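Two-colour Agilent whole mouse genome arrays compared 8 tumors labelled ShcA-null with 1 pool of NIC tumors (12 arrays, 3 slides), from 500 ng of total RNA amplified once by T7 polymerase, per the labels' protocols. Mean foreground and median background intensity per spot were deposited as measured by Feature Extraction 9.5.3.1, per the file headers. The deposited log10 ratio is red over green of processed intensities, per the file headers, and the deposited flags, other values of 0 or 1, mark spots above background, saturated or outlying. The authors also deposited a log2 value table, already turned to tumor over pool, whose correlation with the ratios used here was 0.826 to 0.988 per array and whose column medians ran from -0.0715 to 0.137. The sources used here do not say how that table was normalised or centred. It served as an alternative here, although the members' rule names it, because scanner intensities were at hand.

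Background was corrected by normexp (offset 50) and ratios were normalised by loess in limma 3.58.1 (R 4.3.3, with version 1.17.8 of data.table). Outlier spots were dropped (0.47% to 13.7% per array), saturated spots were kept (at most 3 per array), ratios were turned to tumor over pool, and spots of a probe and arrays of a labelled tumor were averaged. Of 41174 gene probes, 30838 were kept, those with a signal above background, in tumor or pool, for 4 or more of the tumors. Names came from the accession (22951 probes), symbol (6659) or older symbol (3109), and 8455 kept the name in the file. The brightest kept probe stood for a gene. limma tested the mean of 8 tumors against 0, with Benjamini-Hochberg adjustment over 20402 genes and a threshold of 0.05. The pool counts as 1 control sample, so the spread between control tumors is left out, and the number of arrays limits the precision. The fit was tested on simulated data.

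The members and lists were chosen with earlier results of these data known. The text names all members, up to 4 called and 2 uncalled genes per fat cell list by size of mean, and the 5 genes most like Adipoq. A called gene of the lists is counted but not reported here by name. Genes named beyond this rule were chosen after their values were seen (Plin1, Plin4, Dio2, Prdm16, Cpt1b). Of each marker list the called gene with the largest mean is named, and other markers only where their values limit what is said of the list.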

Additional observations from a re-analysis of the deposited data

Results flagged for a closer look

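Among the 10 groups of 8 tumor values tested for a value far from the rest, 3 held one, where chance gives about 1 in 20 for groups that are independent. These groups are not: all share the 8 tumors, and Retn and Fabp4, both set apart by tumor 7, correlated at 0.985 over the first arrays. Retn in tumor 7 had a log2 ratio of 2.31, and the other 7 tumors lay between -1.40 and -0.01. Fabp4 in tumor 7 had 2.08, and the others lay between -0.83 and 0.27. Cebpa in tumor 6 had -2.50 by its brighter probe, and the others lay between 0.22 and 1.60. Its dimmer probe gave -2.03 there but -2.12 in tumor 7, so by that probe tumor 6 was not set apart. In these values the arrays of tumors 1 to 4 are averaged by label. Tumors 6 and 7 had 1 array each, so none of the 3 values has a repeat array. On the 8 first arrays, without averaging, tumor 3 was at 0.69 for Retn and 0.58 for Fabp4. The gap over the range was then 0.457 for Retn and 0.495 for Fabp4, and neither was far from the rest by the same limit, while Cebpa, at 0.569, still was. The normalised log2 intensity of Fabp4 on the array of tumor 7 was 16.53 in the tumor and 14.45 in the pool, where the pool had its lowest value of the first arrays. On the array of tumor 3 the tumor had 16.22.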

How the results depend on the processing

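In 24 alternatives, 1 member was called higher with median centring, with swapped arrays only and with each of the 3 dye terms (Cd36 each time: 0.78, 1.11, 0.64, 0.66 and 0.66 on the log2 scale). Relative to the median of all genes under median centring, Cd36 was at 0.62. Leaving out single tumors gave 0 to 1 members higher (1 without tumor 6, Cebpa) and 0 to 2 lower (2 without tumor 7, Retn and Cidec). The adjusted p of Cd36 was 0.00517 with the labelled tumor as a block, 0.0310 with the best match among tumors 1 to 4 and 0.0424 with that among all 8 tumors, an alternative added after seeing the data. The consensus correlation of those blocks was -0.0376, 0.798 and 0.926. Pathway genes called higher (4) came to 10 with median centring, 2 with first arrays only, 1 with swapped arrays only, 1 with first arrays of tumors 1 to 4, 0 with those of tumors 5 to 8, 0 with the dye term and either best match, 2 with slide as a block and 2 with swapped arrays averaged with their best match. They ran from 0 to 6 over single tumors left out. Pathway genes called lower (5) came to 0 with first arrays of tumors 5 to 8, 8 with the dye term and labelled tumor, 3 with that and the best match among all 8, and 4 to 8 over single tumors left out. The causes were not tested. Fewer arrays enter the fits on part of the arrays.

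Of 240 values of member means, 28 changed sign, mostly of genes whose mean lay near 0, and none of these was called. Fabp4 (-0.05) was 0.64 with median centring, 0.18 on swapped arrays, 0.047 on first arrays of tumors 5 to 8 and 0.091 and 0.080 with the dye term and best match among 4 and 8 tumors, and ran from -0.35 to 0.066 over single tumors left out. Pparg (-0.04) was 0.16 with median centring, 0.034 with the Feature Extraction log ratio, 0.065 on first arrays with or without slide as a block, 0.035 and 0.095 on those of tumors 1 to 4 and 5 to 8, and -0.19 to 0.045 over single tumors left out. Lpl (0.01) was -0.084 on first arrays with or without slide as a block, -0.20 on those of tumors 5 to 8, and -0.17 to 0.14 over single tumors left out. Adipoq was 0.093 on first arrays of tumors 1 to 4, Retn 0.059 on those of tumors 5 to 8, and Lipe -0.019 as the mean of its probes and -0.075 on swapped arrays. The all-gene counts under median centring were 2376 higher and 968 lower, against 1346 and 2157. No paired analysis was possible because 1 group of tumors was set against 1 pool.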
